A study of Mus musculus with 9 samples.

Results

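The 40 genes described here encode glycoproteins, proteoglycans, cross-linking enzymes and hyaluronan synthases of the extracellular matrix, and they were followed in sorted mouse embryonic fibroblasts (MEFs) with low or high MYC. They were taken by gene symbol from a list made with earlier results of these data known. All 40 were found among the 19769 genes of the RNA-seq table. By role they fell into 6 adhesive and matricellular glycoproteins, 12 elastic fibre and microfibril proteins, 3 cross-linking enzymes, 6 small leucine-rich proteoglycans, 4 genes of hyaluronan synthesis and binding, and 9 basement membrane genes.

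RNA was sequenced from primary MEFs homozygous for a Myc-Egfp allele, in which the endogenous gene makes MYC fused to a green fluorescent protein. Low-MYC and high-MYC cells came from the same kind of culture and spent 6 h in 20 µM MG-132, which blocks the proteasome, before sorting. They were sorted by GFP signal with gates set to a like mean forward scatter, a measure of cell size. The paper still reports slightly larger high-MYC cells, a size difference that lasted over several divisions in culture. Every RNA group thus carried the fusion allele and had been through the inhibitor. After sorting, the cells were seeded overnight before RNA was taken. Each group had 2 libraries, which are technical replicates, so the tests compare these libraries and not separate embryos. The series further held 1 ChIP-seq sample of FUBP1, a single-strand DNA binding protein that acts on Myc, from primary MEFs crosslinked for 8 min, and TACh-seq, a map of nuclease-accessible chromatin, from 2 WT samples and 2 samples with a knockout of Fubp1 and a knockdown of Fubp2 (KOKD).

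Values are fragments per kilobase of transcript divided by a score of ERCC spike-in RNA that was added in proportion to cell count (normalized FPK), and they therefore read as mRNA per cell and per length. They summed to 46321 and 48291 in low-MYC libraries and to 102853 and 109090 in high-MYC libraries, and Myc itself was at 9.81 and 9.86 in low-MYC and at 20.3 and 20.5 in high-MYC cells. From the spacing of low values, 1 read was worth 2.25 and 2.54 times as much in the high-MYC libraries as in low-MYC replicate 1, and the implied reads on the 5204 genes with a single annotated transcript numbered 3733121, 3994333, 3634322 and 3545977 in the 2 low-MYC and the 2 high-MYC libraries, so the high-MYC libraries did not hold more of these reads. The fibroblast markers were all expressed (10 of 10 tested) and summed to 367 and 373 in low-MYC and to 896 and 922 in high-MYC cells. Relative to the median gene, 9 of the 10 rose more (48.5% of all tested genes), and 1 passed an adjusted p of 0.01 in limma (1.76%). Of 6 endothelial and 5 epithelial markers, Pecam1, Cdh5, Epcam and Cdh1 were at most 0.0103 in every library, while Kdr (0.161 and 0.162 in low-MYC, 0.251 and 0.293 in high-MYC libraries), Krt18 (0.0769 and 0.0715, 0.231 and 0.327) and Krt19 (1.07 and 1.13, 2.14 and 2.24) were expressed. The epithelial marker Krt8 went from 0.00112 and 0.00224 in low-MYC to 0.0534 and 0.0402 in high-MYC libraries. Markers of macrophages moved with the groups: 15 of 15 were listed, and all 15 were higher in both high-MYC than in both low-MYC libraries. So were 99.0% of all tested genes, and 18289 of all 19769 genes with the untested ones included. The macrophage markers summed to 0.951 and 1.30 in low-MYC and to 30.1 and 31.6 in high-MYC libraries. Of 3 mesothelial markers, Msln went from 0.372 and 0.335 to 1.90 and 2.01 (1.16 on the log2 scale relative to the median gene, adjusted p = 0.00449 in limma) and Upk3b from 0.00327 and 0.00218 to 0.0379 and 0.0539. The 5 tested smooth muscle and mural markers of 6 had log2 fold changes relative to the median gene of -0.39 to -0.06. Those of the 2 tested chondrocyte markers of 6 were -0.18 for Col2a1 and 0.15 for Sox9. Col2a1 was at 5.65 and 5.55 in low-MYC and at 11.2 and 11.2 in high-MYC libraries. Those of the 3 tested tenocyte markers of 4 were 0.04 to 0.41, with Scx going from 0.202 and 0.239 to 0.734 and 0.682. In limma 0 of 2 and 0 of 3 passed an adjusted p of 0.01 (1.76% and 0.531% of all tested genes above and below). Of the 11 tested macrophage markers, 10 rose more than the median gene at an adjusted p under 0.01 in limma (1.76% of all tested genes). Relative log2 fold changes of the 11 were 1.04 to 5.91, with a median of 2.04. Lyz2 went from 0.0861 on average in low-MYC to 18.47 in high-MYC cells, and C1qc from 0.00534 to 1.23. Among the defining macrophage genes, Adgre1 stood at 0.000192 on average in low-MYC and at 0.0302 in high-MYC cells, and Ptprc at 0.000386 and 0.0159. Adgre1 and Ptprc were under the mean of 0.1 needed for testing. The part of RNA from other cell types in the values of the matrix genes was not tested. In such bulk samples a change in the number of cells of a type and a change in the RNA per cell cannot be told apart.

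Fibroblasts lay down the interstitial matrix. Fibronectin and matricellular proteins such as tenascin C and thrombospondins link cells to it, fibrillin microfibrils carry elastin and latent TGF-β, lysyl oxidases cross-link collagen and elastin, small leucine-rich proteoglycans bind collagen fibrils and set their spacing, and laminins with nidogens and perlecan build basement membranes. Hyaluronan, a long sugar polymer made at the plasma membrane by hyaluronan synthases, is bound by the receptor CD44 and by versican.

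MYC with its partner MAX binds E-boxes, whose canonical letters are CACGTG, a palindrome that reads alike on both strands. RefSeq promoter windows (GRCm38.p6, from 250 bases before to 50 bases after the start) were found for 26 of the 40 genes. The E-box occurred in 1 of the 26, Fbln1 (fibulin-1), against 8.09% of all 27025 genes of that table. The letters TATAAA, chosen after the values were seen and searched on both strands, occurred in 5 of the 26 (Aspn, Ogn, Postn, Thbs2 and Tnc), against 15.7% of all genes. In Postn (periostin), whose fold change was among the smallest of the set, the TATAAA began 26 bases before the annotated start. The printed TATAAA match of Ogn began 227 bases before the annotated start, and that of Tnc 126 or 205 bases before, depending on the annotated start. The E-box of Fbln1 and 3 of the TATAAA matches are shown with the motif in capitals, as examples only. Whether either motif goes with the size of a change was not tested. A match is a description of letters and not a bound site.
Fbln1, chr15:85205856-85205885, plus strand: ttagacacttttCACGTGactttctgcctg
Postn, chr3:54361069-54361098, plus strand: agcccagagctaTATAAActcagctctcca
Ogn, chr13:49607776-49607805, plus strand: tttaaaaagattTATAAActaatattcact
Tnc, chr4:64047124-64047153, minus strand: ttttttcttcacTATAAAttgtatgcaaat

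The level of every matrix gene was higher per high-MYC cell, and the genes differed in how far they rose. The comparison used limma on the scale log2(normalized FPK + 0.1), on which low genes appear to change less than they do, and took in the 11870 genes whose mean reached 0.1. Of the 40, 36 were tested. The 4 that were not, Eln, Fbn2, Has1 and Lama2, had means under 0.1. A rise of at least 2-fold with an adjusted p under 0.01 in limma, after Benjamini-Hochberg adjustment, was found for 31 of the 36, as for 55.1% of all tested genes, and a rise at any fold for 36, as for 97.1% of all tested genes. None was lower (0 of 36 by limma, also 0 at an unadjusted p under 0.05), and 0.0253% of all tested genes were. Their median log2 fold change was 1.30, and that of all tested genes was 1.03. In each of the 40 genes both high-MYC libraries were above both low-MYC libraries. The same held for 99.0% of the tested genes, and for 18289 of all 19769 genes with the untested ones included.

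**Figure D1:**
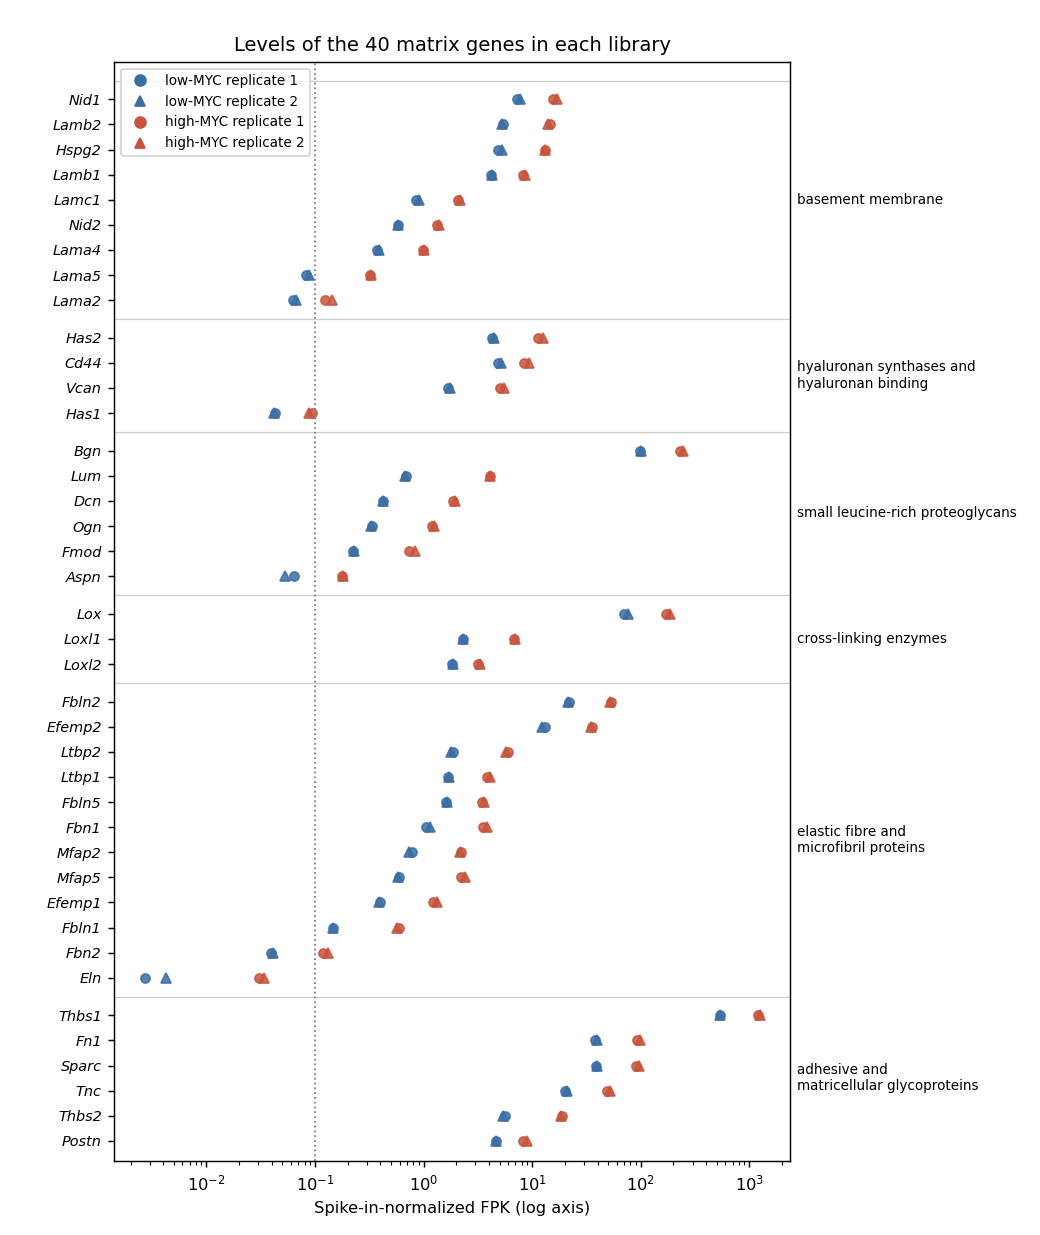
Normalized FPK (log axis) of the 40 matrix genes in each of the 4 RNA-seq libraries, grouped by role and ordered by mean. Circles and triangles are replicates 1 and 2, blue is low-MYC, red is high-MYC, and the dotted line is the mean of 0.1 needed for testing. Levels reach from Eln, at 0.00272 in its lowest library, to Thbs1, at 1244 in its highest, and the red points lie to the right of the blue ones in each gene.

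Because nearly every gene rose per cell, each gene was also read against that shift, after each library had been rescaled to the same median over the tested genes. On this scale 0 is the change of the median gene, and the 5% and 95% points of all tested genes are -0.23 and 0.33 (log2). Of the 36 matrix genes 6 rose more than the median gene in limma (Benjamini-Hochberg adjusted p under 0.01), against 1.76% of all tested genes: Lum, Dcn and Ogn, Mfap5 and Fbn1, and Vcan. By limma 0 of 36 rose less than the median gene, against 0.531% of all tested genes, and 4 did at an unadjusted p under 0.05, against 15.8% of all tested genes. At an adjusted p under 0.05, 16 were above (7.84% of all tested genes) and 4 below (5.08%), the 4 being Postn, Loxl2, Cd44 and Lamb1. Relative fold changes were above 0 in 30 of 36, against 48.5% of all tested genes, and their median was 0.21. Because the genes were chosen with earlier results of these data known, such counts beside the shares of all genes are no test of the set. Each of the 6 calls rested on all 4 libraries: without any 1 library, low-MYC replicates 1 and 2 and high-MYC replicates 1 and 2 in turn, 0 of the 36 passed the adjusted p of 0.01 in limma, while 17 to 22 of them were above the median gene at an unadjusted p under 0.05 (11.5% to 16.7% of all tested genes), as were 25 with all libraries (17.3%), and 0 to 11 of all genes passed the adjusted p.

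**Figure D2:**
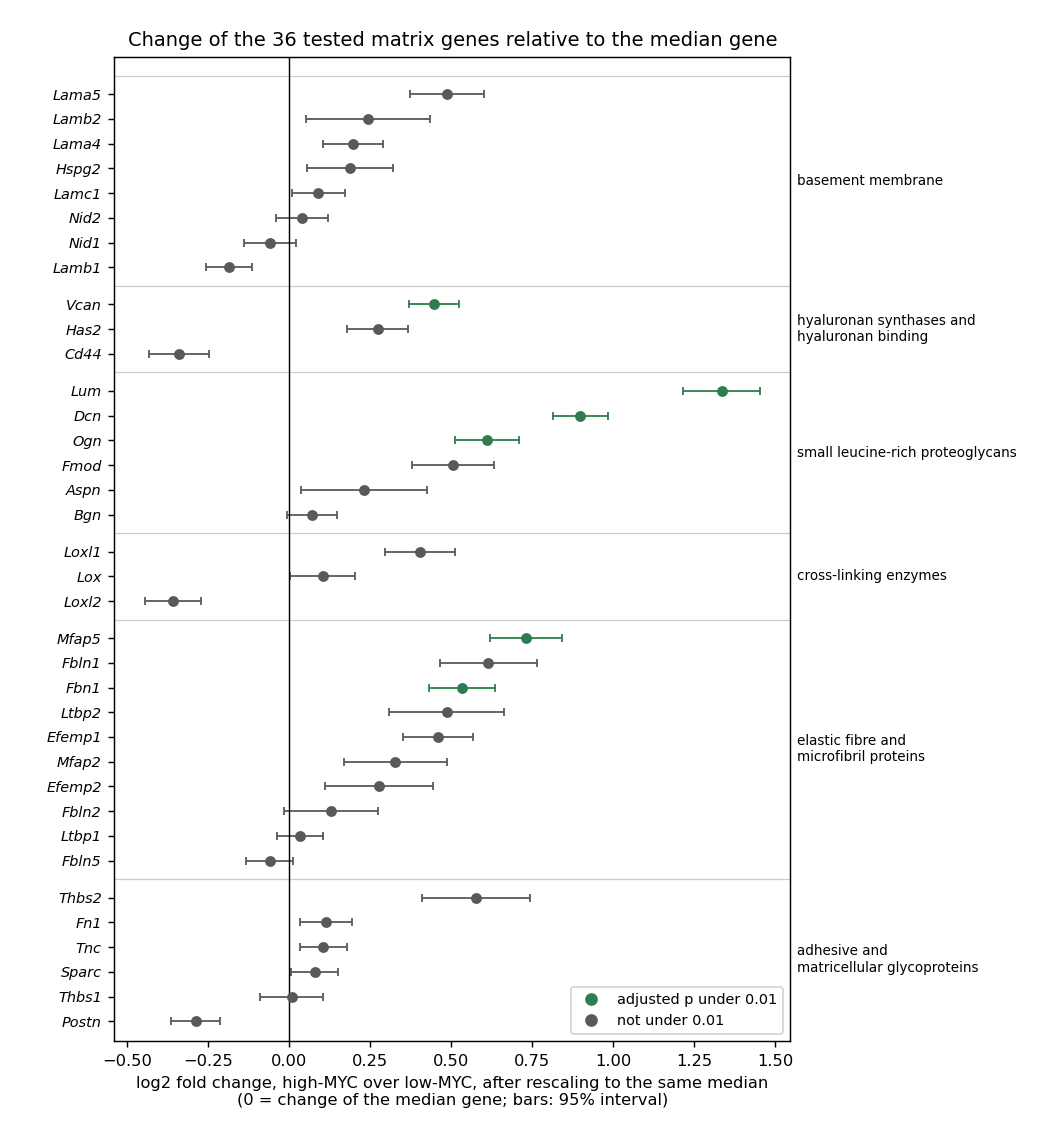
Log2 fold change of the 36 tested matrix genes, high-MYC over low-MYC, after rescaling to the same median, with 95% intervals from limma. Green points are the 6 genes at an adjusted p under 0.01. Lum lies at 1.33, Dcn at 0.90 and Loxl2 at -0.36.

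The small leucine-rich proteoglycans had the largest median relative log2 fold change of the 6 role groups, 0.56. All 6 genes were tested and had values above 0 (48.5% of all tested genes), and 3 passed the adjusted p of 0.01 in limma (1.76%). Lum, which encodes lumican, a keratan sulfate proteoglycan of collagen fibrils (mm10 chr10:97565128-97572703), was at 0.681 and 0.679 normalized FPK in the low-MYC replicates and at 4.10 and 4.08 in the high-MYC replicates. Its high-MYC libraries were 6.01-fold above the low-MYC ones by the ratio of means. Its relative log2 fold change was 1.33 (standard error 0.0428, adjusted p = 0.00202, limma with Benjamini-Hochberg adjustment), which ranked 49 among the 11870 tested genes. Dcn, which encodes decorin (chr10:97479609-97518143), was at 0.423 and 0.422 in low-MYC and at 1.86 and 1.94 in high-MYC libraries. Its groups did not overlap, as in 99.0% of all tested genes. The relative log2 fold change of Dcn was 0.90 (standard error 0.0307, adjusted p = 0.00207, limma with Benjamini-Hochberg adjustment). Ogn, which encodes osteoglycin or mimecan (chr13:49608046-49624501), was at 0.334 and 0.326 in low-MYC and at 1.19 and 1.24 in high-MYC libraries. The relative log2 fold change of Ogn was 0.61 (adjusted p = 0.00541 in limma, Benjamini-Hochberg adjusted, standard error 0.0359).

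The abundant member of the family rose with the median gene. Bgn, which encodes biglycan (chrX:73483602-73495933), stood at 98.9 and 101 in low-MYC and at 231 and 243 in high-MYC libraries. It was the highest proteoglycan of the 6 in every library and had the smallest relative log2 fold change of the family, 0.07 (95% interval -0.01 to 0.15, adjusted p = 0.182, limma with Benjamini-Hochberg adjustment). Per cell Bgn was 2.37-fold higher by the ratio of means, while Lum and Dcn were 6.01-fold and 4.50-fold higher from levels below 1. Aspn, which encodes asporin, was the lowest of the family at 0.0645 and 0.0527 in low-MYC and at 0.178 and 0.181 in high-MYC libraries. Its relative log2 fold change of 0.23 (standard error 0.0703) did not pass (adjusted p = 0.112, limma with Benjamini-Hochberg adjustment), and its values stand for at most 28.1 to 42.2 reads a library. Fmod (fibromodulin) had 0.51 and missed the threshold (adjusted p = 0.0113, limma with Benjamini-Hochberg adjustment).

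Most of these proteoglycan genes lie in clusters, so their neighbours were read by position, a choice made after the values were seen. Dcn and Lum are adjacent on chromosome 10 with Epyc (epiphycan), which was under the limit for testing at 0.00952 and 0.00978 in low-MYC and 0.0362 and 0.0342 in high-MYC libraries. On chromosome 13, Ecm2, Aspn, Omd (osteomodulin) and Ogn follow each other. The tested genes around that cluster lay below the median gene without passing the adjusted p of 0.01: Bicd2 had a relative log2 fold change of -0.15, Ippk of -0.10, Nol8 of -0.21 and Iars of -0.15 (limma with Benjamini-Hochberg adjustment). On chromosome 1, Fmod lies near Prelp and Optc (opticin). Prelp, which encodes a leucine-rich proteoglycan of collagen-rich tissues and is not one of the 40, went from 0.416 and 0.422 to 2.83 and 2.85, which is 1.45 relative to the median gene on the log2 scale (standard error 0.0384, adjusted p = 0.00164, limma with Benjamini-Hochberg adjustment). Btg2 on the other side of Fmod had -0.22.

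**Figure D3:**
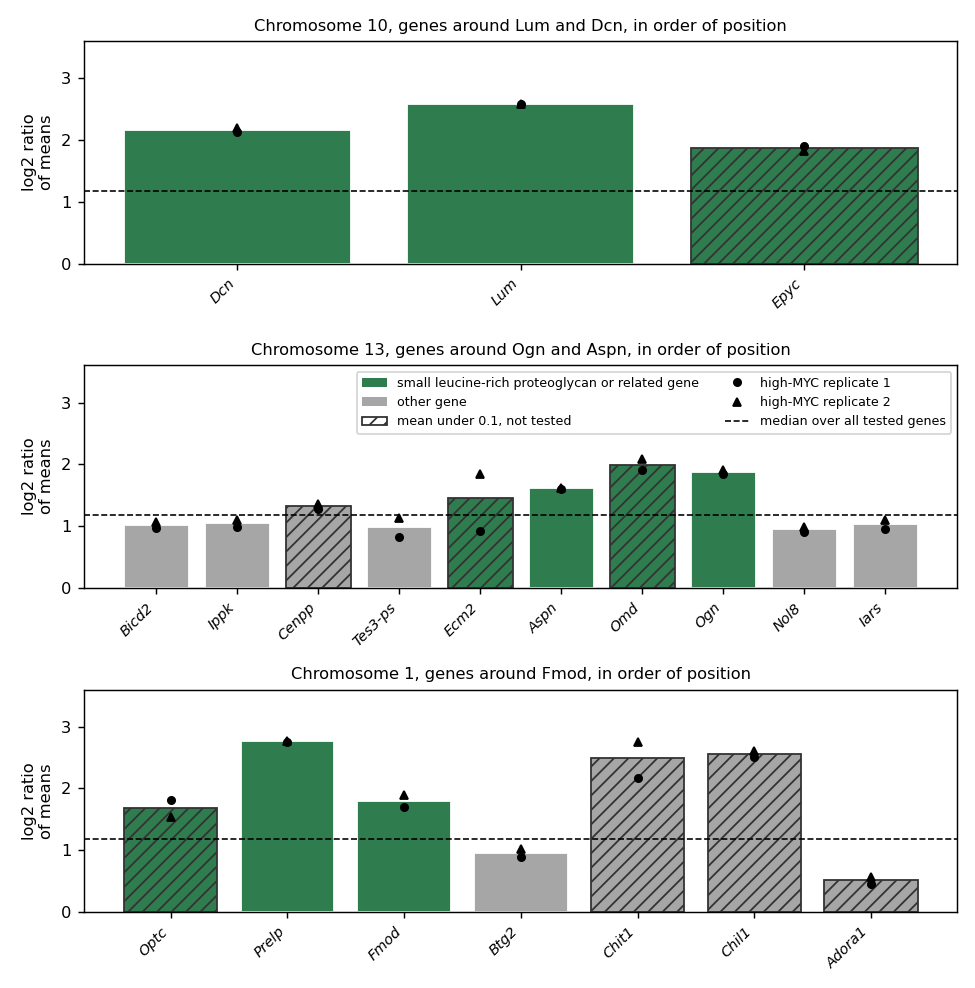
Log2 ratio of the mean normalized FPK, high-MYC over low-MYC, for genes in order of position around Lum and Dcn, around Ogn and Aspn, and around Fmod. Green bars are small leucine-rich proteoglycan genes and a related gene, grey bars other genes, hatched bars genes with a mean under 0.1, and points each high-MYC library over the low-MYC mean. The dashed line is the median of all tested genes, 1.17. All green bars lie above it, as do the hatched grey bars of Cenpp, Chit1 and Chil1, and in Ecm2 1 of the 2 points lies below it.

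The elastic fibre and microfibril genes came next, with 10 of 12 tested and a median relative log2 fold change of 0.39. Of the 10, 9 had values above 0 (48.5% of all tested genes), and 2 passed the adjusted p of 0.01 in limma (1.76%). Mfap5, which encodes MAGP-2, a protein of fibrillin microfibrils (chr6:122505845-122529290), was at 0.599 and 0.575 in low-MYC and at 2.20 and 2.40 in high-MYC libraries. The relative log2 fold change was 0.73 (standard error 0.0406, adjusted p = 0.00483, limma with Benjamini-Hochberg adjustment). Fbn1, which encodes fibrillin-1, the backbone of microfibrils (chr2:125300594-125507993), was at 1.06 and 1.14 and at 3.52 and 3.80. Its relative log2 fold change was 0.53 (standard error 0.0367, adjusted p = 0.00729, limma with Benjamini-Hochberg adjustment). Fbln1 had a relative log2 fold change of 0.61, between these in size, from 0.148 and 0.146 to 0.594 and 0.570, and missed the threshold (adjusted p = 0.0111, limma with Benjamini-Hochberg adjustment).

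Other genes of the fibre did not pass, or were too low for the test. Fbln2, which encodes fibulin-2, had the highest level of the group, 21.7 and 21.3 in low-MYC and 53.7 and 52.5 in high-MYC libraries, and a relative log2 fold change of 0.13 (95% interval -0.02 to 0.27). Fbln5, which encodes a fibulin needed for elastic fibre assembly, had the lowest relative log2 fold change, -0.06 (95% interval -0.13 to 0.01), from 1.61 and 1.65 to 3.44 and 3.62. Both intervals take in 0, the change of the median gene. Eln, the gene of elastin itself, was barely detected, at 0.00272 and 0.0042 in low-MYC and at 0.0305 and 0.0341 in high-MYC libraries, which stand for at most 2.4, 3.7, 12.0 and 11.8 reads, and no fold is given. Fbn2 was untested at 0.0392 to 0.131. Efemp1, Efemp2, Mfap2 and Ltbp2, genes of fibulins, a microfibril glycoprotein and a latent TGF-β binding protein, had relative log2 fold changes of 0.28 to 0.48 and did not pass, and Ltbp1 had 0.03.

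Of the lysyl oxidases, 0 of 3 were called by limma relative to the median gene, 2 were above it and 1 below at an unadjusted p under 0.05 (17.3% and 15.8% of all tested genes), and the median was 0.10. Lox, the founding member of the family, was the third most abundant of the 40 genes, at 70.8 and 75.5 in low-MYC and at 170 and 186 in high-MYC libraries, and had a relative log2 fold change of 0.10 (95% interval 0.00 to 0.20). Loxl1, which acts on elastin, was at 2.28 in both low-MYC libraries and at 6.86 and 6.89 in high-MYC libraries, a relative log2 fold change of 0.40 (adjusted p = 0.0136, limma with Benjamini-Hochberg adjustment). Loxl2 was at 1.84 and 1.87 and at 3.20 and 3.28, and its relative log2 fold change of -0.36 (adjusted p = 0.0109 in limma, Benjamini-Hochberg adjusted, standard error 0.0314) was the lowest of the 36. Per cell Loxl2 rose, by 0.77 on the log2 scale, but by less than the median gene. The ratio of Loxl1 to Loxl2 within a library, which no scaling affects, was 1.24 and 1.22 in low-MYC and 2.15 and 2.10 in high-MYC libraries.

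Adhesive and matricellular glycoproteins held the highest level of the 40 genes, that of Thbs1, with 6 of 6 tested, 0 called by limma, 4 above and 1 below the median gene at an unadjusted p under 0.05 (17.3% and 15.8% of all tested genes), and a median relative log2 fold change of 0.09. Thbs1, which encodes thrombospondin-1, was at 538 and 533 in low-MYC and at 1192 and 1244 in high-MYC libraries, rank 12 and rank 10 among the 19769 genes. Its relative log2 fold change was 0.01 (95% interval -0.09 to 0.10). Fn1 (fibronectin) was at 37.9 and 39.6 and at 92.3 and 97.4, and Sparc, a collagen-binding matricellular protein, was at 38.7 and 39.6 and at 90.9 and 96.2. Their levels overlapped each other within both groups, and with Tnc (tenascin C) they had relative log2 fold changes of 0.08 to 0.11. Thbs2, which encodes thrombospondin-2, went from 5.59 and 5.37 to 18.8 and 18.3. It had the largest relative log2 fold change of the group, 0.58 (standard error 0.0605), and did not pass (adjusted p = 0.0150, limma with Benjamini-Hochberg adjustment). Postn was at 4.60 and 4.66 and at 8.22 and 8.90, the lowest level of the group and a relative log2 fold change of -0.29 (adjusted p = 0.0123 in limma, Benjamini-Hochberg adjusted, standard error 0.0272).

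Of the 4 genes of hyaluronan synthesis and binding, 3 were tested. Of these 3, 2 had relative values above 0 (48.5% of all tested genes), and 1 passed the adjusted p of 0.01 in limma (1.76%). Has2, the main hyaluronan synthase of fibroblasts, was at 4.24 and 4.41 in low-MYC and at 11.2 and 12.5 in high-MYC libraries, a relative log2 fold change of 0.27 (standard error 0.0343) that did not pass (adjusted p = 0.0222, limma with Benjamini-Hochberg adjustment). Has1 was at 0.0425 and 0.0419 and at 0.0928 and 0.0883 and was not tested. Vcan, which encodes versican, a large proteoglycan that binds hyaluronan (chr13:89655312-89742509), was at 1.67 and 1.74 and at 5.10 and 5.53. Its relative log2 fold change was 0.45 (standard error 0.0280, adjusted p = 0.00605, limma with Benjamini-Hochberg adjustment). Cd44, the receptor, was at 4.86 and 5.12 and at 8.47 and 9.32, a relative log2 fold change of -0.34 (adjusted p = 0.0136 in limma, Benjamini-Hochberg adjusted, standard error 0.0335). Cd44 was above Has2 in both low-MYC libraries and below it in both high-MYC libraries. The ratio of Vcan to Cd44 was 0.344 and 0.340 in low-MYC and 0.602 and 0.593 in high-MYC libraries.

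Of the basement membrane genes 8 of 9 were tested, with 0 called by limma, 5 above and 1 below the median gene at an unadjusted p under 0.05 (17.3% and 15.8% of all tested genes), and a median relative log2 fold change of 0.14. Nid1, which encodes nidogen-1, had the highest level, 7.27 and 7.64 in low-MYC and 15.6 and 16.8 in high-MYC libraries, and a relative log2 fold change of -0.06 (95% interval -0.14 to 0.02). Lama5, a laminin α chain gene, was at 0.0823 and 0.0872 and at 0.322 and 0.327. It had the largest relative log2 fold change of the group, 0.49 (standard error 0.0414, adjusted p = 0.0104, limma with Benjamini-Hochberg adjustment), from a low-MYC mean under the limit of 0.1. Lamb1, a laminin β chain gene, went from 4.16 and 4.26 to 8.16 and 8.56, the lowest relative log2 fold change at -0.19 (standard error 0.0261, adjusted p = 0.0278, limma with Benjamini-Hochberg adjustment). Lamb2, the gene of the other β chain measured here, went from 5.44 and 5.22 to 14.7 and 13.9, and the ratio of Lamb2 to Lamb1 was 1.31 and 1.22 in low-MYC and 1.80 and 1.63 in high-MYC libraries. Lama2 was untested at 0.0620 and 0.0661 and at 0.123 and 0.142. Hspg2 (perlecan), Lama4, Lamc1 and Nid2 had relative log2 fold changes of 0.04 to 0.20.

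The make-up of the matrix transcripts was also read within each library. The 40 genes took 1.90% ± 0.0479 of the summed normalized FPK of low-MYC cells and 1.99% ± 0.0179 of that of high-MYC cells (SD, n = 2 each), and Thbs1 held most of it, as the share without Thbs1 was 0.771% and 0.843%. Elastic fibre and microfibril genes took 0.0897% ± 0.00434 and 0.105% ± 0.00486, and small leucine-rich proteoglycans 0.215% ± 0.00371 and 0.231% ± 0.00118 (SD, n = 2 each). High-MYC shares were above low-MYC shares in both libraries in these comparisons. An exact permutation test of 2 against 2 libraries cannot give a two-sided p under 0.333, so no test of shares or ratios was made. The 18 ratios between related genes were chosen and oriented with the fold changes known, so their direction and the number that did not overlap between groups are no result. Lum to Bgn went from 0.00689 and 0.00675 to 0.0178 and 0.0168, and Dcn to Bgn went from 0.00427 and 0.00419 to 0.00806 and 0.00798. The ratio of Tnc to Fn1, both genes of adhesive glycoproteins, overlapped at 0.534 and 0.528 against 0.527 and 0.529.

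**Figure D4:**
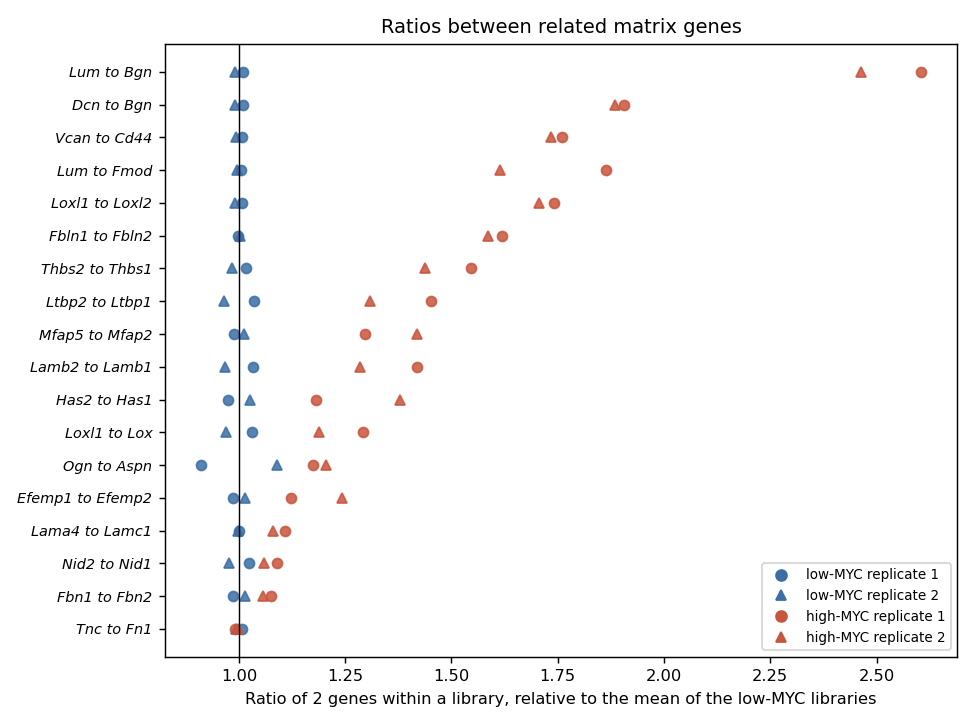
Ratios between 18 pairs of related matrix genes within each library, divided by the mean of the low-MYC libraries. Circles and triangles are replicates 1 and 2, blue is low-MYC and red is high-MYC. Pairs were oriented with the fold changes known, so only the distances are to be read: Lum to Bgn was 2.53-fold apart by the means, and in Tnc to Fn1 the groups overlap.

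Related genes outside the 40 were counted from lists of other hyaluronan genes, proteoglycans, matrix glycoproteins, laminins and basement membrane genes, and integrins. Of 130 listed, 122 were in the table and 69 were tested. The lists were likewise chosen with earlier results of these data known, so their counts are no test either. At least 2-fold higher per cell were 50 of the 69 (55.1% of all tested genes). By limma 13 rose more than the median gene (1.76% of all tested genes) and 0 less (0.531%), where 12 were less at an unadjusted p under 0.05 (15.8%). These were 1 of 10 hyaluronan genes, 4 of 12 proteoglycans, 8 of 28 glycoproteins, 0 of 6 laminin and basement membrane genes and 0 of 13 integrins and other receptors, of which 2 and 1 were above it at an unadjusted p under 0.05 (17.3% of all tested genes). Beside Prelp, the proteoglycan genes with the largest relative log2 fold changes were Prg4 (lubricin) at 0.81 and Esm1 (endocan) at 0.74. Among glycoprotein genes they were Ccn5 at 1.43, Spp1 (osteopontin) at 0.97 and Ecm1 at 0.80. Spp1 stood at 114 and 113 in low-MYC and at 488 and 519 in high-MYC libraries. Cemip, whose product takes part in hyaluronan breakdown, was at 2.66 and 2.62 and at 7.89 and 8.21, with 0.42.

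Has2 and Fbln1 are the genes of the 40 that lie on chromosome 15, to which the FUBP1 peak list is confined. Has2 (mm10 chr15:56665627-56694539, minus strand, 4 exons) was overlapped by 3 of the 166 peaks, which covered 51.1% of the gene. Counting only peaks that lay mostly within the gene gave 2. The peak chr15:56687801-56692800 (5000 bp) lay wholly in intron 1, from 1739 to 6738 bp downstream of the start. The peak chr15:56668601-56676200 (7600 bp) held exon 3, and the peak chr15:56659001-56667800 (8800 bp) covered 2174 bp of exon 4 and ran 6626 bp past the end of the gene. No peak lay on the start itself. The antisense gene Has2os overlaps Has2 at its start and had a mean of 0.00415 normalized FPK.

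**Figure D5:**
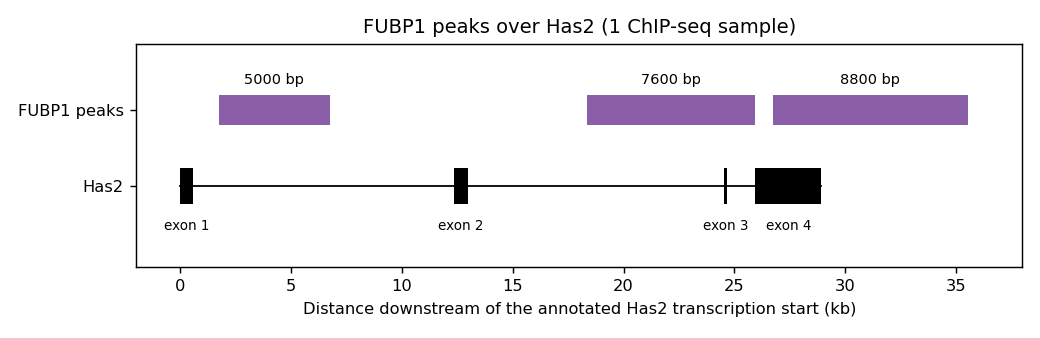
The 3 FUBP1 peaks over Has2 against distance downstream of the annotated transcription start (kb), with exons as black boxes. The peaks are 5000, 7600 and 8800 bp wide, and the last runs past the end of exon 4.

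Fbln1 (chr15:85205949-85286535) had 0 peaks, and the nearest was 2055549 bp away. Of the 406 protein-coding genes of chromosome 15 with a mean of at least 0.1, 55 (13.5%) had a peak and 9 (2.22%) had 3 or more. Among the 53 of them within 2-fold of the level of Has2, 10 had a peak and 0 had 3 or more. Has2 peaks held 37.3% to 40.3% GC, against 42.0% for the chromosome and a median of 39.0% for all peaks. These counts take any overlap of a peak with a gene. The genes set beside Has2 were matched by level and not by length, and longer genes can meet more peaks. There was 1 ChIP-seq sample, and its list gives positions only, so these overlaps have no replicate and no height. The paper reports some cross-reaction of the ChIP antibody with FUBP2, and the part of FUBP2 in these peaks was not tested.

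Accessible chromatin was read from the table of 4881417 listed TACh-seq reads, which the labels of all 4 WT and KOKD samples name as their table. Its name points to a WT sample and to peaks, and no column names a library. Its source is therefore unsure, and no comparison between WT and KOKD was made. Whether it lists all reads or only those in called peaks is not given. A gene with 0 listed reads may thus still have had reads there. Of the 40 genes, 31 had a listed read within 500 bp of the annotated start. Of the 36 tested genes 29 (80.6%) did, with a median of 72 reads, against 84.2% and a median of 106 for protein-coding genes with a mean of at least 0.1. Fn1 with 360 and Lox with 295 had the most, and Has2 had 68. The genes without a listed read were Dcn, Lum and Fmod, Fbn1, Mfap5, Loxl2 and Lama5, together with the untested Has1 and Lama2. Of the 6 genes that rose more than the median gene, 4 (Dcn, Lum, Fbn1 and Mfap5) had 0 reads there, Ogn had 59 and Vcan had 118, while 3 of the other 30 tested genes had 0. Over all protein-coding genes, 94 of the 198 that rose more than the median gene (47.5%) had 0 reads, against 15.1% of the other tested genes. These shares were not tested. The start used is the outermost annotated end, and a gene may be read from another: Fbn1 had 0 reads there and 1652 within the gene, Sparc 4 and 953. Lum, Fmod, Mfap5 and Lama5 had 0 in the whole gene.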

How the data were processed

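The 40 genes and the other lists were chosen with earlier results of these data known. For RNA-seq the authors trimmed reads, used TopHat to align them to mm10 transcripts and Partek to quantify them, and scaled each value by transcript length and by an ERCC spike-in score; the deposited values are this signal (normalized FPK). Versions of these tools are not given in the sources used here. Expectation-maximization splits reads shared by overlapping or similar genes. The libraries were made with a stranded mRNA kit, but whether strand was used in the quantification is not given. The value of the antisense gene at Has2 is uncertain for that reason. Read counts were not used; what 1 read is worth was estimated from genes with a single annotated transcript, of whose values 27.0% to 36.7% between 1 and 20 reads lay within 0.05 of a whole number, so a count test was not run.

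Groups were compared with limma 3.58.1 (lmFit, eBayes with trend, R 4.3.3) on log2(normalized FPK + 0.1), mean at least 0.1, Benjamini-Hochberg over all 11870 genes, tested on simulated data. Calls were made at an adjusted p under 0.01, on the spike-in scale with at least 2-fold. Named in full are genes called relative to the median gene and those with the highest or lowest level or relative change of their role group; of the other lists, at most 3 called genes per direction. Ranks among levels use normalized FPK, which is per length.

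For ChIP-seq the authors aligned with Bowtie2 and called peaks with SICER (per the labels), and the deposited list holds positions only. For TACh-seq the deposited table holds read positions and a mapping score from 11 to 42; no column names a library, and the labels of the WT and KOKD samples all name this 1 table. Coordinates are 1-based on mm10, with GENCODE M21 genes; gene ends were moved by 1 base to match it. Promoter sequences are from RefSeq (GRCm38.p6). Python 3.11.15, pandas 2.3.3 and numpy 2.4.6 were used. Alternatives covered the pseudocount, minimum mean, scaling, trend, replicate block, threshold, replicates, peak overlap and promoter window.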

Additional observations from a re-analysis of the deposited data

How the results depend on the processing

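Of the 36 tested genes, 35 kept the direction of their relative log2 fold change under every alternative run, and Thbs1, whose value is near 0, became -0.026 with no minimum mean, -0.0057 with a minimum mean of 1 and -0.0060 with the same upper quartile, and ranged from -0.015 to 0.029 without each replicate in turn, turning sign without low-MYC replicate 2 (-0.015) and high-MYC replicate 1 (-0.0068). The 6 calls above the median gene became 2 (Dcn and Lum) of 40 with no minimum mean (64 of 19769 genes), 10 of 28 with a minimum mean of 1 (318 of 5608 genes), 11 with the same upper quartile (262 of 11870 genes) and 16 at an adjusted p under 0.05, and 0 to 0 without each replicate in turn. The 0 calls below it became 4 (Cd44, Lamb1, Loxl2 and Postn) with a minimum mean of 1 (213 of 5608 genes), 1 (Loxl2) with the same upper quartile (87 of 11870 genes) and 4 at an adjusted p under 0.05. With the replicate block the count above the median gene was 0, as over all genes (0 of 11870), and 26 of the 36 were above it at an unadjusted p under 0.05, against 19.9% of all genes in that fit; same-numbered libraries deviated with a correlation of 0.0810 over 11870 genes, so the numbers were not taken to pair the libraries. The 31 genes at least 2-fold higher per cell became 20 with a pseudocount of 1 and 1 (Lum) after rescaling of the libraries to 1 median. The median relative log2 fold change of 0.21 became 0.12 with a pseudocount of 1 and 0.11 with a minimum mean of 1. Without Thbs1 the 40 genes took 0.771% (low-MYC) and 0.843% (high-MYC) of the total. Fewer genes entered the fit at a minimum mean of 1 (5608), and the fits without a replicate rest on 3 libraries, the lone sample being assumed to vary like the other group; the causes of the other changes were not tested. Depth limits Eln, Aspn and Has1 most, at under 50 reads in each library.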
